A study of Mus musculus with 12 samples.

Results

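Hippocampal RNA at CT12, the start of the subjective night (dusk), was compared with that at CT0, the start of the subjective day (dawn). The comparison used 6 of the 12 arrays of the series: the 3 mice labelled CT12 (mice 10, 11 and 12) and the 3 labelled CT0 (mice 1, 2 and 3), taken by their titles. All 12 mice were adult, male and wild-type and were held in constant darkness, with 1 mouse per 1-colour Agilent array. The strain is not given in the sources used here, and no mice kept in a light-dark cycle were among the groups. Tissue was taken after 36 hours of darkness at CT0 and after 48 hours at CT12, so circadian time and time in the dark cannot be told apart. CT6 (42 hours in the dark) and CT18 (30 hours), again 3 mice each, entered the estimate of the spread and are given here only as levels beside the comparison. The study asked which hippocampal genes follow the circadian rhythm when light does not change.

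The circadian clock is a transcriptional loop. The activators CLOCK and BMAL1 (gene Arntl) bind E-boxes in front of the genes for their own repressors, the Period and Cryptochrome proteins, CIART and the BHLHE40 and BHLHE41 factors. They also drive the nuclear receptors NR1D1 and NR1D2, which silence Arntl, and DBP, which acts through D-boxes. In nocturnal rodents the adrenal hormone corticosterone peaks around dusk, and it enters the brain and acts through the glucocorticoid receptor on genes such as Sgk1 and Tsc22d3.

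Before the results, 1 of the 6 libraries needs a description, because its marker genes go against its label. The library labelled CT12 mouse 11 correlated with the other 11 at 0.945 to 0.965 over genes, against at least 0.984 among those 11, and it held the most extreme value of the 12 libraries for 13426 of 24080 genes (55.8%). Neurod6, a transcription factor of excitatory forebrain neurons, was at 2.09 and 2.63 in CT12 mice 10 and 12 and at -2.16 in mouse 11. Every level here is a log2 intensity relative to the 75th percentile of its array. Pcp2, a gene of cerebellar Purkinje cells, was at -1.21 and -1.53 in mice 10 and 12 and at 7.32 in mouse 11. Over the marker lists, the median of the 10 excitatory forebrain genes, relative to each gene's mean over the 12 libraries, was -4.72 in mouse 11 and that of the 10 measured cerebellar genes 4.60. Markers of the tissue that makes cerebrospinal fluid, the choroid plexus, stood high in CT0 mouse 1 (median of 12 genes 3.69), CT12 mouse 10 (3.21) and CT12 mouse 11 (1.86), and low in CT0 mice 2 and 3 (-1.95 and -1.70) and CT12 mouse 12 (-2.09). Most differences are therefore given with and without CT12 mouse 11. CT12 mouse 10, which stays in that repeat, also stood apart in some lists. Its excitatory forebrain median was -0.17, against 0.51 in CT12 mouse 12 and 0.27 to 0.48 at CT0. Its thalamus median was 1.23, against -0.06 in CT12 mouse 12 and -0.14 to 0.12 at CT0. The arrays lay on 3 slides, each with 1 CT0 and 1 CT12 library, and the difference within each slide is given for the leading genes: slide 1 pairs CT12 mouse 11 with CT0 mouse 2, slide 2 pairs the libraries with few choroid plexus transcripts (mice 12 and 3), and slide 3 pairs those with many (mice 10 and 1).

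**Figure D1:**
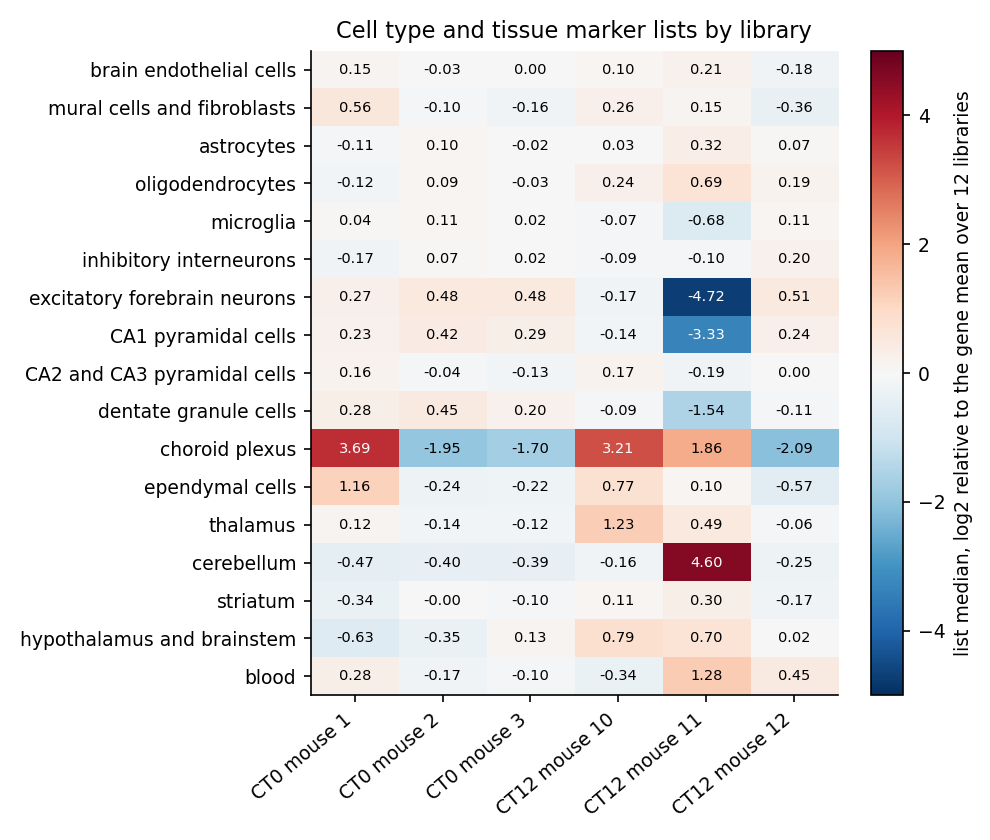
Median of each marker list (rows) in the 3 CT0 and 3 CT12 libraries (columns), as log2 intensity relative to each gene's mean over all 12 libraries; red is high and blue is low. CT12 mouse 11 stands at -4.72 for excitatory forebrain neurons and 4.60 for cerebellum, and the choroid plexus list is high in CT0 mouse 1 and CT12 mouse 10.

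Of the 5 genes whose promoters are shown, Ciart and Sgk1 were called (adjusted p under 0.05 with all arrays), and Per1, Cry1 and Per3 were not. The promoters were selected from those that hold the letters bound by the clock or by the glucocorticoid receptor. They are shown 5′ to 3′ on the gene's own strand, from RefSeq on GRCm38.p6, with the motif in capitals. Ciart, from chr3:95882229-95882384 (minus strand), holds 3 copies of the E-box CACGTG, which begin 116, 58 and 44 bases before its start. Per1 (chr11:69098743-69098832, plus strand) holds 1, at 166 bases. Cry1 (chr10:85185065-85185173, minus strand) holds an E-box at 60 bases and the related CACGTT, read here as AACGTG, at 79. Per3 (chr4:151044774-151044910, minus strand) holds 2 copies of the D-box TTATGTAA, at 205 and 158 bases. Sgk1 has several starts, and 1 of them (chr10:21993640-21993750, plus strand) holds an E-box at 246 bases and, at 189 bases, the glucocorticoid response element, AGAACA and TGTTCT with 3 bases between.
Ciart: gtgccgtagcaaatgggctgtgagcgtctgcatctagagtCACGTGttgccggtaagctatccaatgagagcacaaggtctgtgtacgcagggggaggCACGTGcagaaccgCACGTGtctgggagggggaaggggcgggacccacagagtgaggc
Per1: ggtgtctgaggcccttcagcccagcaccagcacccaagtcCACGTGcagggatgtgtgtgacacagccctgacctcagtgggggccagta
Cry1: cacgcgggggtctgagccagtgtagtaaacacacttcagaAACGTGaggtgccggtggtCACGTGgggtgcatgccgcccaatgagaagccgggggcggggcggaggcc
Per3: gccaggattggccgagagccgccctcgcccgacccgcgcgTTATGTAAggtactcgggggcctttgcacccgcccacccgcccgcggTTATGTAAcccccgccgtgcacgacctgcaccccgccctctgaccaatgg
Sgk1: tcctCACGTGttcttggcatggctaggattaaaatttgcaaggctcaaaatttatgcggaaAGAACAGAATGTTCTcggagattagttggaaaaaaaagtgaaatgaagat

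Both strands of 32851 mouse promoters, from 250 bases before to 50 after the start, were searched for the same letters. The E-box CACGTG was in 7.15% of them, CACGTT in 4.68%, the D-box in 0.938% and the full glucocorticoid response element in 3 promoters (0.00913%), 1 of which is the Sgk1 promoter shown. Counted by gene, 8.09% of genes held the E-box in at least 1 of their promoters. Of the 21 genes on the lists of clock repressors, activators and D-box factors, 18 had a promoter in the table. By the same count 5 of those 18 (27.8%) held the E-box: Bhlhe41, Ciart, Cry1, Per1 and Tef. Among the 17 genes called between CT12 and CT0 in either fit, 14 had a promoter, and only Ciart and Sgk1 of these (14.3%) held the E-box. Of the same 14, Wfdc6b alone held CACGTT, none held the D-box and Sgk1 alone held the full response element. Of 25 genes with a promoter on the list of glucocorticoid receptor targets, again only Sgk1 held that element. A match describes the letters and shows no binding.

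With all 12 arrays, 14 of 24080 genes (0.0581%) differed between CT12 and CT0 at an adjusted p under 0.05, 12 of them higher and 2 lower at CT12. The higher genes were the clock genes Ciart and Dbp, the glucocorticoid targets Tsc22d3, Arrdc2, Sgk1, Plin4, Hif3a and Nfkbia, the purine enzyme Ada, the glucose transporter Slc2a1, and Fam83d and Cables1, both tied to the cell cycle. The lower genes were Pcdh12, a protocadherin of endothelial cells, and a transcript that the array names only by its genome position. Without CT12 mouse 11, 7 genes (0.0291%) were called, 5 higher and 2 lower: Ciart, Tsc22d3, Hif3a and Pcdh12 in both fits, and Nr1d2, Lao1 and Wfdc6b only in this one. With slide as a block 12 genes were called, 9 of them among the 14, and without CT12 mouse 11 the block gave 9, 5 of them among the 7. In bulk tissue, fewer cells of a type and less RNA per cell cannot be told apart.

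Single libraries moved these counts. Of the 12 repeats that each leave out 1 library, Ciart was called in 12, Tsc22d3 in 7, Hif3a in 6, Ada and Arrdc2 in 5, Fam83d, Nfkbia, Pcdh12 and Sgk1 in 3, Dbp and Plin4 in 2, and Cables1, Slc2a1 and the transcript named by position in 1, and the adjusted p of these 14 did not exceed 0.212 in any repeat. The number of called genes was 1 without CT0 mouse 1, CT0 mouse 3, CT6 mouse 5 or CT6 mouse 6, 2 without CT18 mouse 14, 7 without CT0 mouse 2, CT6 mouse 7, CT12 mouse 11 or CT18 mouse 16, 11 without CT18 mouse 15, 12 without CT12 mouse 10 and 78 without CT12 mouse 12. With the slide as a block, Sgk1 (adjusted p = 0.106), Pcdh12 (0.115), Fam83d and Nfkbia (0.08 each) and the transcript named by position (0.106) were no longer called, and without CT12 mouse 11 the block ended the calls of Tsc22d3 (0.0812) and Hif3a (0.0694). With the choroid plexus median of each library as a covariate 8 genes were called, 7 of them among the 14; Dbp (adjusted p = 0.0674), Sgk1 (0.068), Nfkbia (0.0674), Slc2a1 (0.0762), Fam83d (0.0671) and Pcdh12 (0.0674) were not, while their differences ran from -1.30 (Pcdh12) to 2.15 (Fam83d). Without both CT0 mouse 1 and CT12 mouse 10, the libraries highest in choroid plexus genes, 5 genes were called, of which Ciart alone was among the 14.

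Sizes were compared between the fits. The 14 called genes had a median size of 1.27 on the log2 scale in both, and since their groups do not overlap, leaving out 1 library could not turn their sign. Of all 24080 genes, 76.4% had the same sign in both fits. Over 1 log2, 888 genes differed with all arrays, called ones included. Without CT12 mouse 11, 854 of them (96.2%) had the same sign, 547 (61.6%) shrank to under 50% of their size, and the median size went from 1.30 to 0.54. Neurod6 went from -1.98 to -0.47 and Pcp2 from 3.17 to 0.28. An unadjusted p under 0.05 was reached by 2809 genes (11.7%), and of these 552 (19.7%) shrank to under 50%. All 3 CT12 libraries lay above all 3 CT0 libraries for 1246 genes (5.17%) and below them for 1871 (7.77%).

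**Figure D2:**
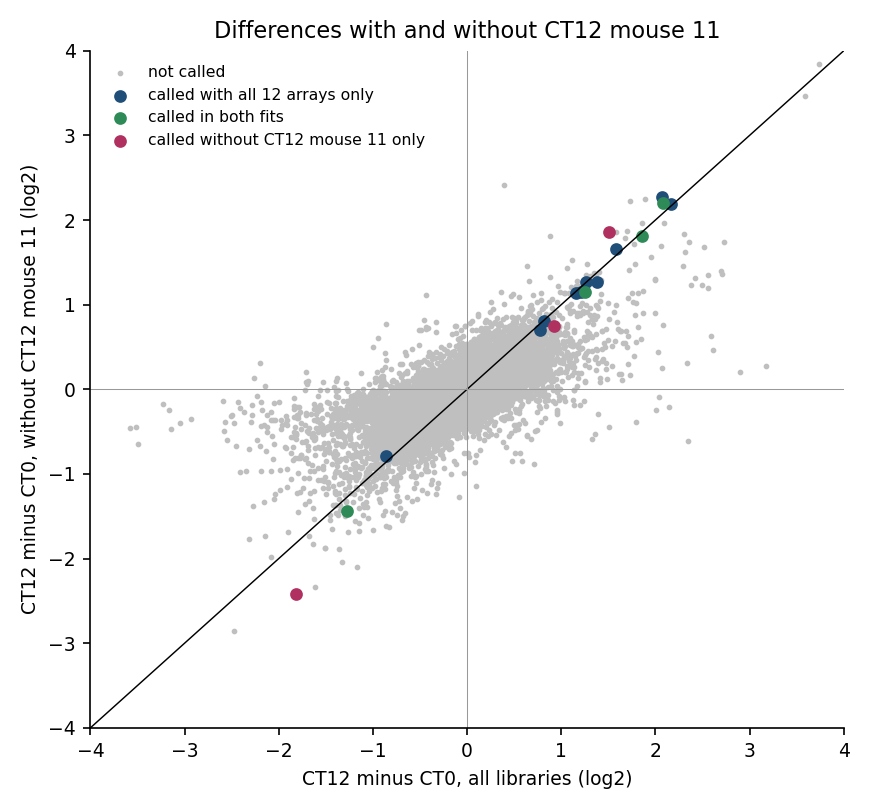
Difference CT12 minus CT0 (log2) of each of 24080 genes with all libraries (x axis) and without CT12 mouse 11 (y axis); the black line marks equal values. The genes called in either fit lie near the line, while many uncalled genes that differ by over 1 log2 on the x axis lie close to 0 on the y axis.

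Ciart, a repressor of CLOCK and BMAL1 also known as CHRONO, led the comparison. Its levels at CT0 were -3.50, -4.01 and -3.52 in mice 1, 2 and 3, and at CT12 -1.92, -1.71 and -1.82 in mice 10, 11 and 12. Every CT12 library lay above every CT0 library, and mouse 11 was the highest of the CT12 libraries by a small margin. Ciart rose by 1.86 ± 0.15 (SE) on the log2 scale, 3.63-fold, with an adjusted p of 0.00424, and by 1.81 without mouse 11 (adjusted p = 0.015). The difference was 2.30, 1.70 and 1.58 on slides 1, 2 and 3, and the gene stayed called when any 1 of the 12 libraries was left out, with adjusted p-values up to 0.0193. With normexp background correction in place of the processed signal the difference was 0.92 (adjusted p = 0.00752). Its mean climbed from -3.68 at CT0 to -2.71 at CT6 and -1.82 at CT12 and was -3.45 at CT18. The probe lies at chr3:95682433-95682492 on mm9, the build of the array files.

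The other repressors lay on the same side. All 10 measured members of the list had a difference above 0 in both fits. Of all genes, 46.2% did with all arrays and 47.9% without mouse 11. Of the 10, 8 had all 3 CT12 libraries above all 3 CT0 libraries (against 5.17% of all genes), and 7 reached an unadjusted p under 0.05 (against 11.7%). The median difference was 0.55, and 0.48 without mouse 11, against -0.02 and -0.01 over all genes. Within slides 1, 2 and 3 the median was 0.83, 0.47 and 0.51. Only Ciart was called with all arrays. Nr1d2, a nuclear receptor that silences Arntl, was at 1.13, 1.06 and 1.15 at CT0 and 1.89, 2.39 and 1.82 at CT12. Here mouse 11 was the highest of the CT12 libraries, and without it the difference went from 0.92 to 0.74 while the adjusted p went from 0.0711 to 0.0354. The other Nr1d2 probe gave 0.79. Its paralog Nr1d1 had its highest mean at CT6 (1.04), with 0.71 at CT12 and 0.19 at CT0, a difference of 0.52 (adjusted p = 0.172), and of 0.44 without mouse 11.

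Among the Period genes, whose proteins form the main repressor complex with the Cryptochromes, all 3 had CT12 libraries above the CT0 libraries and none was called. Per1, at 3.28, 3.45 and 3.61 at CT0 and 3.80, 4.13 and 4.17 at CT12, differed by 0.58 (95% interval 0.30 to 0.87, adjusted p = 0.221), and by 0.54 without mouse 11. Per3, at -1.85, -2.17 and -1.93 at CT0 and -1.52, -1.15 and -1.44 at CT12, differed by 0.62 (adjusted p = 0.151), and by 0.51 without mouse 11. Per2 differed by 0.46, or 0.39 without mouse 11, and had its highest mean at CT18 (-0.58), its lowest at CT6 (-1.46). Cry1 differed by 0.86 (adjusted p = 0.333; 0.79 without mouse 11) with values from -4.84 to -4.52 at CT0 and from -4.07 to -3.68 at CT12, and its lowest mean was at CT6 (-5.34). The remaining differences were small: 0.40 for Bhlhe41, 0.16 for Bhlhe40 and 0.09 for Cry2, whose 95% interval ran from -0.12 to 0.29. Without mouse 11 these were 0.22, 0.14 and 0.10. The 6 genes with their highest mean at CT12 were Ciart, Nr1d2, Per1, Per3, Cry1 and Bhlhe41.

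Of the 7 activators, none was called in the fits with or without mouse 11. Arntl, which encodes BMAL1, was at 1.20, 1.57 and 1.47 at CT0 and 0.65, 0.66 and 0.80 at CT12, so that the groups did not overlap, and it had the highest of its 4 means at CT0 and the lowest at CT12. The difference was -0.71 (adjusted p = 0.0732), and -0.69 without mouse 11 (adjusted p = 0.113). Over all arrays, Arntl was called as lower with the choroid plexus median as a covariate and with normexp background correction. Clock, its partner, differed by -0.15 (95% interval -0.32 to 0.02), and by -0.17 without mouse 11. For 3 further members the difference depended on mouse 11: Rora, an activating nuclear receptor, stood at 2.11, 3.08 and 1.49 at CT12 and went from 1.30 to 0.88 without it, Npas2, a paralog of Clock, went from -1.07 to -0.15, and Arntl2 from -0.25 to 0.00. Rorb differed by 0.12 and 0.29 in the 2 fits.

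The D-box factors split. Dbp, a clock output factor, was at 4.54, 4.33 and 4.06 at CT0 and at 5.57, 5.92 and 5.58 at CT12, with no overlap. It rose by 1.38 ± 0.17 (SE), 2.61-fold (adjusted p = 0.0383), and the difference without mouse 11 was 1.27 (adjusted p = 0.0742). Both its probes gave similar values, 1.34 and 1.38, and slides 1, 2 and 3 gave 1.59, 1.52 and 1.04. Its mean was already 5.19 at CT6 and was 4.74 at CT18. The other members were not called: Hlf differed by 0.18, Tef by 0.08 and Nfil3, which competes with DBP for the D-box, by -0.38, and their groups overlapped. In the fit without mouse 11 these became 0.36, 0.11 and -0.62.

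Clock outputs and regulators gave no call. Of 19 output genes, 12 (63.2%) lay above 0, against 46.2% of all genes, and 8 (42.1%) reached an unadjusted p under 0.05, against 11.7%, all 8 higher at CT12. Without mouse 11 that p was reached by 8 higher and 2 lower genes, and the median went from 0.15 to 0.18. Coq10b, needed for coenzyme Q function, went from -0.91, -0.91 and -0.57 to -0.35, 0.14 and -0.09, a difference of 0.70 (adjusted p = 0.159). Wee1, a kinase that holds back mitosis, differed by 0.65 (adjusted p = 0.308), Klf9 by 0.32 (adjusted p = 0.316) and Fmo2, a monooxygenase, by 2.09 (adjusted p = 0.279), with CT0 values spread from -5.08 to -3.83. Without mouse 11 the 4 differences were 0.58, 0.43, 0.37 and 1.97. None of the 13 kinases and ubiquitin ligases that modify clock proteins reached an unadjusted p under 0.05, and their differences ran from -0.09 to 0.30.

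**Figure D3:**
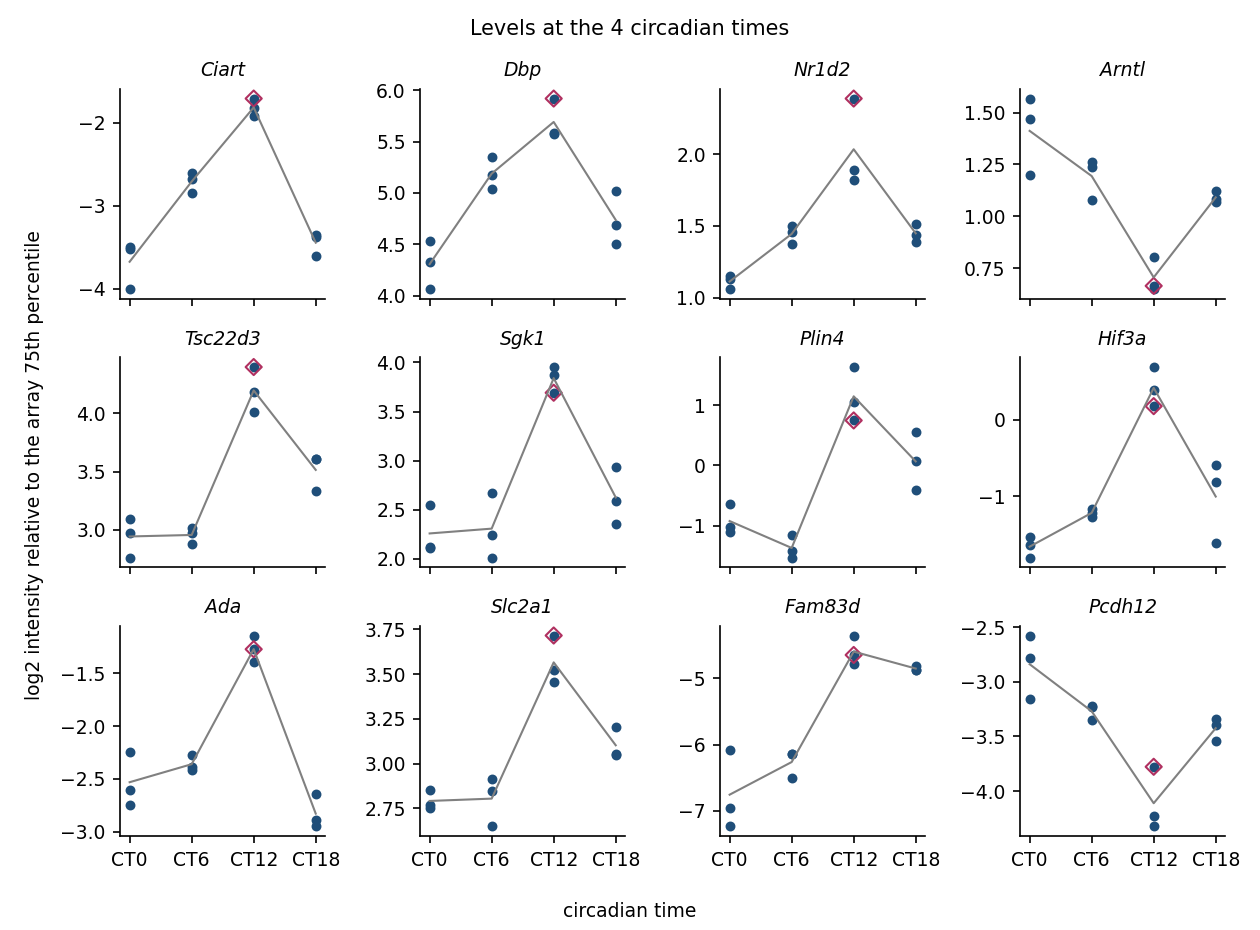
Level of 12 genes in each library (points) and the mean (line) at CT0, CT6, CT12 and CT18, on the log2 scale of the text, with an own axis for each gene; the open diamond marks CT12 mouse 11. Arntl and Pcdh12 are lowest at CT12 and the other 10 are highest there, with Dbp and Ciart already above their CT0 mean at CT6.

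Genes that respond to glucocorticoids supplied 6 of the 12 genes called higher. Of 29 measured targets, 22 (75.9%) lay above 0, against 46.2% of all genes. An unadjusted p under 0.05 was reached by 13 in the higher direction and 1 in the lower, 48.3% in all against 11.7% of all genes. For 12 targets, all 3 CT12 libraries lay above all 3 CT0 libraries (5.17% of all genes did). The median difference was 0.39, and 0.35 without mouse 11, where 25 (86.2%, against 47.9% of all genes) lay above 0 and 2 were called. Within slides 1, 2 and 3 it was 0.32, 0.40 and 0.45. The list holds genes from general knowledge and was written with earlier results of these data known, so its count is not independent evidence of direction.

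Tsc22d3 encodes GILZ, an anti-inflammatory protein that the receptor induces directly. Its levels were 2.76, 3.09 and 2.97 at CT0 and 4.01, 4.40 and 4.18 at CT12, and it rose by 1.25 ± 0.13 (SE), 2.39-fold (adjusted p = 0.0235), and by 1.16 without mouse 11 (adjusted p = 0.0359). The 3 slides differed little, at 1.30, 1.21 and 1.25. The mean at CT6, 2.96, was close to the CT0 mean of 2.94, and at CT18 it was 3.51. Arrdc2, an arrestin-domain gene, showed the same order, with 1.45, 1.80 and 1.65 at CT0 against 2.78, 2.95 and 2.80 at CT12. It rose by 1.21 (adjusted p = 0.0235), and the difference without mouse 11 was 1.16 (adjusted p = 0.052).

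Sgk1, a kinase that regulates ion channels and whose promoter holds the full response element shown above, was at 2.55, 2.11 and 2.12 at CT0 and at 3.88, 3.69 and 3.95 at CT12. It rose by 1.58 ± 0.20 (SE), 2.99-fold (adjusted p = 0.0432), and the difference was 1.66 without mouse 11 (adjusted p = 0.0696). CT6, at 2.31, lay near CT0. Plin4, a coat protein of lipid droplets, rose by 2.07, 4.19-fold (adjusted p = 0.0432), from -0.64, -1.02 and -1.11 to 1.63, 0.75 and 1.06. Leaving out mouse 11, the lowest of its CT12 libraries, gave 2.27 (adjusted p = 0.0504). Its lowest mean was at CT6 (-1.37). Nfkbia, the inhibitor that holds NF-kB in the cytoplasm, varied little at CT0 (2.49, 2.56 and 2.50) and stood at 3.42, 3.70 and 3.89 at CT12. It rose by 1.15 (adjusted p = 0.0432), with 1.14 and an adjusted p of 0.0806 without mouse 11.

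Hif3a, a hypoxia-inducible factor that is also a receptor target, was at -1.81, -1.53 and -1.64 at CT0 and 0.69, 0.18 and 0.38 at CT12. It rose by 2.08 ± 0.23 (SE), 4.22-fold (adjusted p = 0.0235), and by 2.20 without mouse 11 (adjusted p = 0.0431). These values are of its brightest probe. Of the other 2, both dim, 1 was not well above background on any CT0 array and so gives only a bound there, and the other gave 0.04; taking the median of the probes ended the call. Of 22 genes on the hypoxia list Hif3a alone was called, 12 lay above 0 and the median was 0.03. P4ha1, a collagen-modifying enzyme, lay the other way, at 0.59, 0.76 and 0.67 at CT0 and 0.21, -0.38 and 0.21 at CT12 (difference -0.66, adjusted p = 0.221; -0.46 without mouse 11).

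Other receptor targets did not pass the test with all arrays. Per1 (0.58), Gjb6, a connexin of astrocytes (0.43), Klf9 (0.32), Sult1a1 (0.62) and Errfi1 (0.29) had groups that did not overlap, and without mouse 11 these were 0.54, 0.38, 0.37, 0.70 and 0.23. Several members depended on mouse 11, and in 5 of the 29 (Fkbp5, Zbtb16, Cebpd, Rhob and Gpd1) the sign changed without it. Galnt15 stood at -0.34, 2.88 and -0.51 at CT12 and its difference went from 2.42 to 1.31 without mouse 11. Fkbp5, a chaperone that restrains the receptor and a standard readout of it, stood at 2.22, 0.61 and 2.25 at CT12 against 1.98, 1.93 and 1.75 at CT0, and its difference turned from -0.20 to 0.34. Zbtb16 turned from -0.52 to 0.20 and Mertk, a phagocytic receptor, went from 0.18 to 0.51. Map3k6, a stress kinase, went from 0.52 to 0.79, Ddit4 from 0.41 to 0.28, Cdkn1a from 0.52 to 0.17, Dusp1 from 0.69 to 0.47, Rhob from -0.11 to 0.14, Cebpd from -0.36 to 0.15 and Gpd1 from 0.14 to -0.12, with adjusted p-values from 0.111 to 0.978 over both fits. The metallothioneins Mt1 and Mt2 differed by 0.30 and 0.39 with overlapping groups, and by 0.28 and 0.30 without mouse 11. Pdk4, Angptl4 and Bcl6 differed by 0.10, 0.08 and -0.01, and by 0.08, 0.10 and -0.11 without it. Il1r1 (-0.50) and Lcn2 (-0.34) were on the lower side, at -0.28 and -0.34 without it. The receptors themselves gave no call. Nr3c2, the mineralocorticoid receptor, went from 0.30, 0.19 and 0.07 to -0.28, -1.82 and -0.14, a difference of -0.94 that became -0.40 without mouse 11 (adjusted p = 0.403 and 0.425), and the 9 genes of receptors and steroid metabolism had a median of 0.01.

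**Figure D4:**
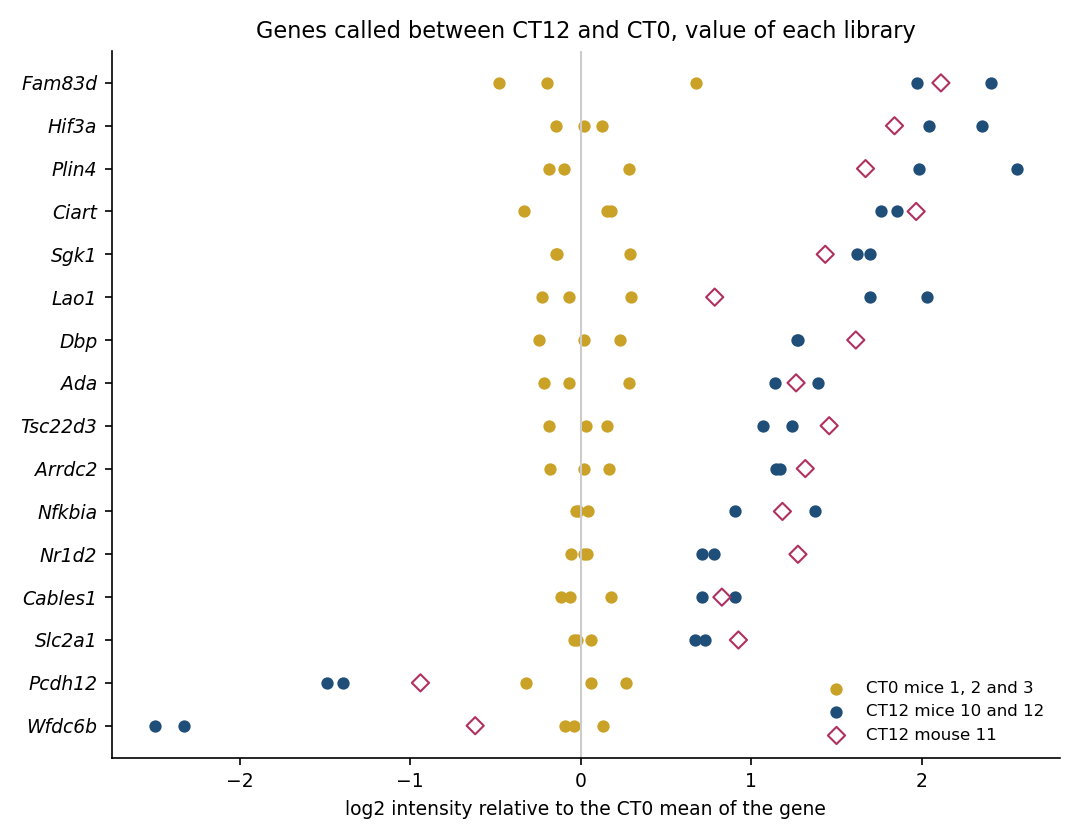
Level of the 16 genes with a RefSeq symbol called in either fit, as log2 intensity relative to the gene's CT0 mean, in the 3 CT0 libraries, CT12 mice 10 and 12, and CT12 mouse 11 (diamond). No CT12 point overlaps the CT0 points of its gene, and mouse 11 stands clearly apart from mice 10 and 12 in Lao1, Nr1d2, Pcdh12 and Wfdc6b.

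Ada, which converts adenosine to inosine and so lowers a signal tied to sleep pressure, was higher at CT12. It stood at -2.60, -2.25 and -2.75 at CT0 and at -1.14, -1.27 and -1.40 at CT12, and rose by 1.26 ± 0.14 (SE), 2.40-fold (adjusted p = 0.0235). Without mouse 11 the difference was again 1.26 (adjusted p = 0.0504). Its lowest mean was at CT18 (-2.83), next to -2.36 at CT6. Among the other 14 adenosine genes none was called: Entpd1, an ectonucleotidase, differed by -0.39 and the receptor gene Adora2b by 0.41 with overlapping groups, which became -0.30 and 0.36 without mouse 11.

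Slc2a1 encodes the glucose transporter of the blood-brain barrier. It had small spreads, with 2.77, 2.85 and 2.75 at CT0 and 3.52, 3.71 and 3.46 at CT12, and rose by 0.77 ± 0.10 (SE), 1.71-fold (adjusted p = 0.0432). The difference was 0.70 without mouse 11 (adjusted p = 0.0742) and 0.86, 0.71 and 0.75 on the 3 slides. The other 23 genes of glucose and lactate handling gave no call and the list median was 0.00; Ldhb differed by 0.46 (0.30 without mouse 11), Pfkl by -0.58 (-0.14) and Slc16a7, a lactate carrier, by -0.47 (-0.24).

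Among cell cycle genes, Fam83d and Cables1 were called. Fam83d, a spindle protein, was not well above background on any CT0 or CT6 array and was so on all CT12 and CT18 arrays, with measured values from -7.24 to -6.08 at CT0 and from -4.79 to -4.35 at CT12. Since the CT0 signal gives only a bound, CT12 was at least 1.52-fold higher. The adjusted p of 0.0281 (0.0637 without mouse 11) is of the measured difference of 2.16 and does not test this bound. That difference rests on CT0 readings that were not well above background. The gene entered the test only through the times at which it was well above background, and with normexp background correction its difference was 0.30 (adjusted p = 0.471). For the bound, a dim array counted at the lowest signal among its probes well above background unless Fam83d itself read higher there. Cables1, which links cyclin-dependent kinases to other kinases, rose by 0.81, 1.76-fold (adjusted p = 0.0432), from 1.85, 2.15 and 1.91 to 2.68, 2.80 and 2.88, with 0.81 again without mouse 11 (adjusted p = 0.0806). The 15 measured genes of mitosis and proliferation had a median of -0.01, with Ccnb2 at 0.22 and Cdc20 at 0.91, which were 0.21 and 0.36 without mouse 11.

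Pcdh12 fell. It was at -2.58, -3.16 and -2.78 at CT0 and at -4.23, -3.78 and -4.32 at CT12, highest of its 4 means at CT0 and lowest at CT12. The difference was -1.27 ± 0.17 (SE), 2.42-fold lower (adjusted p = 0.0432), and -1.44, 2.72-fold lower, without mouse 11 (adjusted p = 0.0354). It was not called with normexp background correction (-0.55, adjusted p = 0.366) or in the deposited table (-1.06, adjusted p = 0.204). On slide 1, which holds mouse 11, the difference was -0.62, and on slides 2 and 3 it was -1.55 and -1.66. The 18 endothelial markers did not share a direction: 8 lay above 0, the median was -0.03, and the list median per library ran from -0.03 to 0.15 at CT0 and from -0.18 to 0.21 at CT12. Cldn5, the claudin of the barrier's tight junctions, differed by -0.77 (adjusted p = 0.0901, and 0.0534 without mouse 11), opposite in sign to Slc2a1, while Pecam1, on all endothelial cells, differed by -0.15 (-0.06 without mouse 11). The transcript named only by position (probe at chr6:120676657-120676716, mm9) fell by 0.86 (adjusted p = 0.0488), and its other 3 probes gave values from -0.67 to -0.15.

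A pair of dim genes was called only when mouse 11 was left out. Normexp background correction was run over all arrays only, where neither gene was called in the main setting, so it does not test these calls. Wfdc6b, of a family of secreted protease inhibitors, was at -4.44, -4.49 and -4.27 at CT0 and at -6.73, -5.02 and -6.90 at CT12, where only 1 of 3 arrays was well above background. The difference went from -1.81 (adjusted p = 0.23) to -2.41 (adjusted p = 0.015), and with that correction it was -0.31 (adjusted p = 0.484). Both CT12 arrays left without mouse 11 read background, so the size of the fall is not measured. Lao1, an amino acid oxidase, was at -5.33, -4.80 and -5.17 at CT0, where 1 of 3 arrays was well above background, and at -3.07, -4.32 and -3.41 at CT12. It went from 1.50 (adjusted p = 0.159) to 1.86 (adjusted p = 0.0432), and was 0.40 (adjusted p = 0.471) with that correction. Most of its CT0 readings were not well above background, so the size of the rise is not measured either. For both genes the adjusted p rests in part on such readings. Neither gene could enter the setting that required all 6 arrays well above background.

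**Figure D5:**
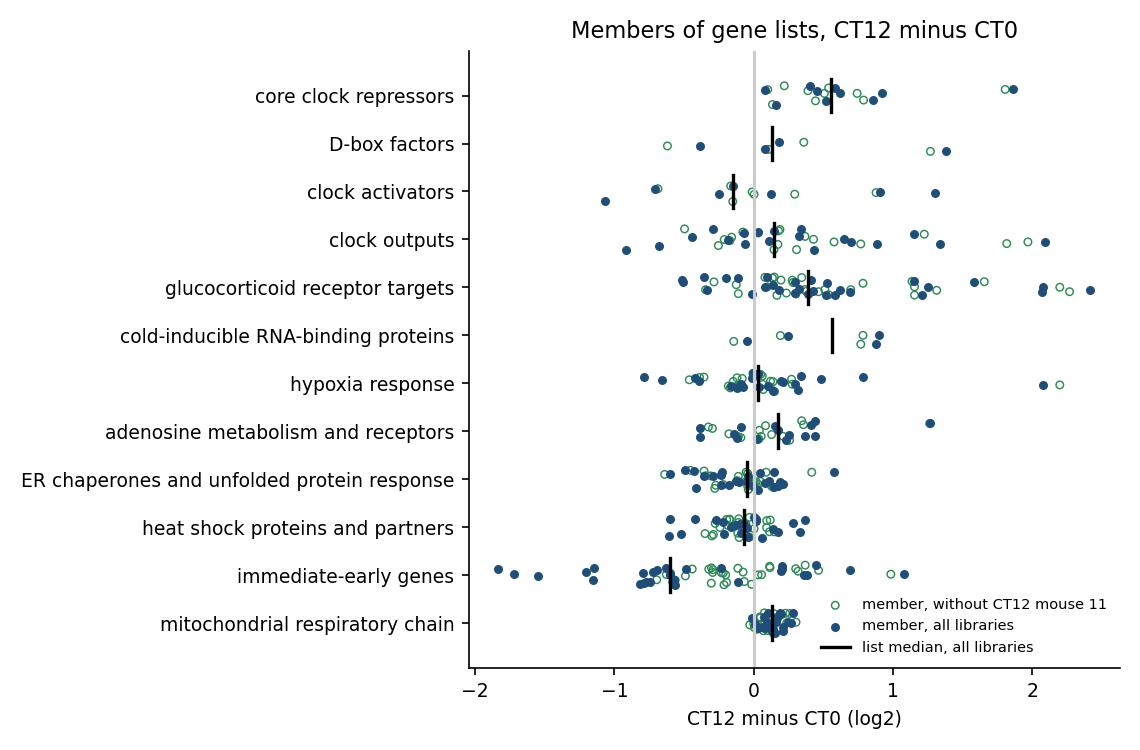
Difference CT12 minus CT0 (log2) of each measured member of 12 gene lists, with all libraries (filled) and without CT12 mouse 11 (open); the black bar is the list median with all libraries. Clock repressors and cold-inducible genes have the highest medians, at 0.55 and 0.56, and the immediate-early genes move toward 0 when mouse 11 is left out.

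Of the other process lists, none had a called member in the fits with or without mouse 11 apart from those named. Cirbp and Rbm3, RNA-binding proteins induced by a fall in temperature, had groups that did not overlap. Cirbp was at 3.12, 3.42 and 3.25 at CT0 and at 3.91, 4.37 and 4.16 at CT12, a difference of 0.88 (adjusted p = 0.125), and Rbm3 differed by 0.90 (adjusted p = 0.0901). Cirbp, at 3.95, was already near its CT12 level at CT6 and was lowest at CT18 (2.85). With mouse 11 left out the differences were 0.77 and 0.79. Another Rbm3 probe gave 0.95, and 0.80 without mouse 11, while a much dimmer probe gave 0.52, and 0.285 without it. With slide as a block Cirbp was called with mouse 11 (adjusted p = 0.0285) and without it (0.0484), and Rbm3 was not (0.129 and 0.185). The related Srsf5 differed by -0.05 and Rbmx by 0.24, and by -0.14 and 0.19 without mouse 11.

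Chaperones of the endoplasmic reticulum gave no call. Of 25 genes, 7 reached an unadjusted p under 0.05 in the lower direction and 1 in the higher, 32.0% in all against 11.7% of all genes. The median was -0.05 with and without mouse 11, with 0.07 on slide 2 and -0.22 on slide 3. Calr, a calcium-binding chaperone, was at 4.24, 4.36 and 4.04 at CT0 and at 3.76, 3.65 and 3.77 at CT12 (difference -0.49, adjusted p = 0.221). Hyou1 differed by -0.43 and Hsp90b1 by -0.29, while Herpud1, which serves protein disposal, differed by 0.58 (adjusted p = 0.31). Without mouse 11 the 4 differences were -0.45, -0.36, -0.34 and 0.42. In 20 of the 25 the highest mean was at CT18, outside this comparison. Heat shock genes gave no call. Of 23, 4 (17.4%, against 11.7% of all genes) reached an unadjusted p under 0.05, all 4 lower at CT12, and the median was -0.07 (-0.11 without mouse 11). Hsph1 differed by -0.52 and Dnajb5 by -0.61, and by -0.35 and -0.30 without it.

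Immediate-early genes, which neurons switch on with activity, had no called member. An unadjusted p under 0.05 was reached by 5 in the lower direction and 2 in the higher, 24.1% in all against 11.7% of all genes. Their median over 29 genes was -0.60 with all libraries and -0.20 without mouse 11, in which the list median relative to each gene's mean was -1.22, against -0.26 and 0.20 in CT12 mice 10 and 12. At CT0 it was -0.18, -0.01 and 0.51 in mice 1, 2 and 3. Within slides 1, 2 and 3 the median difference was -1.21, -0.35 and -0.05. The excitatory forebrain markers were low in CT12 mouse 11, as given above, and their part in this result was not tested. Bdnf, a growth factor, was at 0.59, 0.96 and 1.06 at CT0 and at 0.14, -0.19 and 0.44 at CT12, a difference of -0.74 and of -0.58 without mouse 11 (adjusted p = 0.265 and 0.363). Inhba, an activin subunit, had -0.57 and -0.70. On the higher side were Maff (1.08, adjusted p = 0.15) and Gadd45g (0.45), at 0.98 and 0.37 without mouse 11.

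The intellectual disability genes, the subject of the study's title, gave no call. Of 66 measured genes on a list from general knowledge, 18 lay above 0, against 46.2% of all genes, the median was -0.13 (-0.10 without mouse 11), and 12 reached an unadjusted p under 0.05 in the lower direction and 1 in the higher, 19.7% in all against 11.7% of all genes. Auts2, a neuronal chromatin regulator, was at 1.80, 1.76 and 1.71 at CT0 and at 1.53, 1.16 and 1.42 at CT12 (difference -0.38, adjusted p = 0.315; -0.28 without mouse 11). Zeb2 differed by -0.70 and Cacna1c, a calcium channel subunit, by -0.47, and both were nearer 0 without mouse 11, at -0.38 and -0.29. Slc6a8, the creatine transporter, differed by 0.42 (0.29 without mouse 11). Synaptic receptor genes had a median of -0.16 over 23 genes and potassium channels one of -0.26 over 24, which became -0.06 and 0.00 without mouse 11. Grin2a, an NMDA receptor subunit, stood at 2.14, 0.21 and 2.39 at CT12 and went from -1.03 to -0.34.

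The remaining process lists had medians from -0.20 to 0.13. Over all genes the median was -0.02 and 46.2% lay above 0. The 25 respiratory chain genes had a median of 0.13 (0.08 without mouse 11) with 24 above 0, none called and 1 at an unadjusted p under 0.05, and within slides 1, 2 and 3 the median was 0.19, 0.24 and -0.02. Of 24 cytosolic ribosomal protein genes 19 lay above 0 with a median of 0.09 (0.13 without mouse 11, 0.42 on slide 2 and -0.07 on slide 3). The 20 cholesterol synthesis genes had a median of 0.11 (0.07), led by Insig1 at 0.52, which was 0.28 without mouse 11. The 13 NF-kB genes had a median of -0.20 (-0.16), and within slides 1, 2 and 3 it was 0.41, -0.14 and -0.09. Only Nfkbia was called, and Nfkbiz, at -0.36 (-0.38), lay the other way.

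Among the cell type and tissue lists, the 11 oligodendrocyte genes had a median of 0.31 (0.24 without mouse 11) with all 11 above 0, the 9 dentate granule cell genes one of -1.18 (-0.36) and the 10 thalamus genes one of 0.73 (0.55), with a thalamus list median of 1.23 in CT12 mouse 10. The hypothalamus and brainstem list had a median of 0.97 over 7 genes (0.88). Relative to each gene's mean, its median was 0.79, 0.70 and 0.02 in CT12 mice 10, 11 and 12, and the difference was 0.05 on slide 2 and 1.66 on slide 3. Further medians of tissue lists were 2.06 for cerebellum (0.38 without mouse 11), -1.83 for excitatory forebrain neurons (-0.22), -1.38 for CA1 pyramidal cells (-0.21) and 0.88 for choroid plexus (0.47). Within slides 1, 2 and 3 the choroid plexus median was 3.81, -0.25 and -0.56, so the value without mouse 11 has the opposite sign to slides 2 and 3. Blood stood at 0.50 (0.07), microglia at -0.29 (-0.08), striatum at 0.27 (0.16), mural cells and fibroblasts at -0.18 (-0.19), astrocytes at 0.17 (-0.03), inhibitory interneurons at 0.15 (0.03), CA2 and CA3 pyramidal cells at -0.07 (0.12) and ependymal cells at -0.02 (-0.13). Apart from the choroid plexus level, given above as a covariate, and the repeats without libraries, the part of these markers in the gene results was not tested. On slide 2 the median difference was -0.10 for thalamus, 0.64 for blood and -0.41 for dentate granule cells. The leading genes had differences there of 1.70 (Ciart), 1.52 (Dbp), 1.21 (Tsc22d3), 1.84 (Sgk1), 2.02 (Hif3a), 1.35 (Ada) and -1.55 (Pcdh12). Since the groups of the called genes do not overlap, their sign on a slide was fixed, and these values do not test the part of the markers.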

How the data were processed

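One array per mouse was read from each scanner file. Per the file headers, the deposited processed signal is a Cy3 intensity from Agilent Feature Extraction 10.7.3.1, background-subtracted and detrended within the array, and probes are placed on mm9. A deposited table of log2 values has column medians of 5.369 to 5.370. Its scaling is not given in the sources used here, and it served as an alternative. Spot flags (other, 0 or 1) and the local background intensity were also taken from the deposited files. Each column of the table correlated at 0.99 or more with the array it is named for.

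Depth is the signal over background: of 59305 non-control spots per array, 59.3% to 77.1% lay well above background and 0 were saturated. The local background was 100 on CT0 mouse 1, whose header asks for its quality to be evaluated, and 25 to 37 elsewhere. The number of arrays limits the precision. Each circadian time had 1 fixed array position on all slides, so position and time cannot be told apart.

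The 75th percentile of each array was subtracted from its log2 processed signal. Outlier spots were left out and spots of a probe averaged. Of 55681 probes, 146 lacked a value and 33955 were kept, being well above background on all 3 arrays of at least 1 time. The brightest probe stood for its gene, giving 24080 genes, 16084 with a RefSeq symbol. RefSeq names (GRCm38.p6) came through the accession for 26582 probes, the symbol for 2602 and a synonym for 492, and 26005 kept the array's name.

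R 4.3.3 with limma 3.58.1 fitted 4 time means over 12 arrays, tested CT12 minus CT0 with the moderated statistic and adjusted p-values by Benjamini-Hochberg over all genes. The fit was tested on simulated data. The fit was repeated without CT12 mouse 11. Every ± beside a difference is its standard error. Mice are separate animals, 3 per time. The 22 process lists and 17 marker lists came from general knowledge. Members and lists were chosen with earlier results of these data known. The text names all measured members of the repressor, activator, D-box and glucocorticoid lists, every called gene with a symbol, the 4 members of each other process list with the smallest p (some by range) and a few defining markers; some genes that this rule names are not reported here. Alternatives covered scaling, background correction, filters, probe summary, variance models, slide, choroid plexus level, and leaving out libraries.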

Additional observations from a re-analysis of the deposited data

How the results depend on the processing

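For the 13 genes with a symbol called with all arrays, 163 values under the alternatives kept the call and 213 lost it with no change of sign; the groups of these genes do not overlap, so their sign says little. Of the list medians, 936 stayed within the spread between libraries and 78 moved by more. Against 14 called genes with all arrays, quantile normalization and the deposited table each gave 7, median centring 5, the choroid plexus level as a covariate 8, no filter on dim probes 1, array quality weights 1, and a threshold of 0.1 gave 41. Leaving out CT0 mouse 1 and CT12 mouse 10 gave 5, those and CT12 mouse 11 another 5, and CT12 mouse 11 with the slide as a block 9. Fitted on the 6 arrays of CT0 and CT12 alone, limma called 0 genes (943 at an unadjusted p under 0.05). Leaving out 1 library gave 1 to 78. Against 7 called genes without CT12 mouse 11, quantile normalization and the deposited table gave 0 (2318 and 2279 at an unadjusted p under 0.05), the remaining 5 arrays of CT0 and CT12 alone 0 (1060), median centring 15, and the percentile over spots, an alternative chosen after seeing the data, 11. Leaving out 1 further library gave 0 (without CT0 mouse 1, CT6 mouse 5 or CT6 mouse 7) to 45. The cause of these changes was not tested. Some settings hold fewer arrays, and the setting without a filter on dim probes holds more genes (36041). The median of all genes was -0.02 in the main setting, 0.19 with median centring and -0.12 without the filter. Ciart was called in 27 of 29 alternatives, all but the 6 arrays alone and the fit without 3 libraries, and its difference ran from 0.92 to 2.19. Hif3a ran from 0.79 to 2.29. The mice carry no replicate numbers shared between times, but each slide pairs 1 library of every time: with the slide as a block 12 genes were called with all arrays, 9 of them among the 14, and without CT12 mouse 11 9, 5 of them among its 7. With 3 mice a time, 1 of 6 libraries of doubtful tissue and some marker lists that also set CT12 mouse 10 apart, genes that were not called may still differ.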
